A study of Mus musculus with 2 samples.

Results

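Imprinted genes are read mainly from the copy inherited from a single parent, and 47 of them, grouped in 18 clusters, were examined for differences in DNA methylation between cells derived from a pair of adipose progenitor populations. The members were 47 named genes, and a region of the authors' table of differentially methylated regions was counted as theirs when it overlapped the RefSeq span of the gene or the 2 kb on either side. In all, 61 of the 28141 listed regions met this rule, and a region shared by neighbouring members was counted once. The libraries were made by whole-genome bisulfite sequencing, in which unmethylated cytosines are converted, and the level reported for a region is the methylated fraction of its cytosines, from 0 to 1. One group was a library of C57BL/6 mouse adipose progenitors sorted with magnetic beads for CD137, a receptor taken to mark precursors of beige adipocytes. The second was a library of progenitors sorted the same way for PDGFRα (CD140), a receptor of mesenchymal progenitors. Cells of both groups had been through culture, adipogenic induction and 1 µM of the synthetic glucocorticoid dexamethasone, so no untreated cells are compared. The fat came from subcutaneous or visceral depots. For each library the depot, the age and sex of the mice and any pooling of animals were not stated in the sources used here. With 1 library per group no difference has a replicate check and no test between groups was made, and how many reads support each level is unknown.

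At the clusters examined here, parental identity is held by an imprint, a CpG-rich stretch that is methylated on the copy from only a single parent. Most imprints are laid down in the egg or the sperm. They are kept after fertilization by a zinc-finger protein, ZFP57, which binds a methylated hexamer, and by the maintenance DNA methyltransferase. An imprint read from a mixture of both parental copies therefore gives a level midway between none and full. Several imprinted genes act in fat: Dlk1 restrains adipocyte differentiation, Mest is linked to the enlargement of adipocytes, Grb10 damps insulin signalling, and Gnas couples adrenergic receptors to cyclic AMP.

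The promoter sequences of 4 members are shown first. Listed regions lay in or near them, and each held the hexamer described below, unlike the windows near a region in other members. Each is a RefSeq window on GRCm38.p6, the assembly of mm10, from 250 bases before to 50 bases after an annotated start, written 5′ to 3′ on the plus strand, which is the coding strand of all 4 genes. In Mest (chr6:30737800-30738099) and Nnat (chr2:157559828-157560127) the capitals mark the bases that lie inside a listed region.
Mest: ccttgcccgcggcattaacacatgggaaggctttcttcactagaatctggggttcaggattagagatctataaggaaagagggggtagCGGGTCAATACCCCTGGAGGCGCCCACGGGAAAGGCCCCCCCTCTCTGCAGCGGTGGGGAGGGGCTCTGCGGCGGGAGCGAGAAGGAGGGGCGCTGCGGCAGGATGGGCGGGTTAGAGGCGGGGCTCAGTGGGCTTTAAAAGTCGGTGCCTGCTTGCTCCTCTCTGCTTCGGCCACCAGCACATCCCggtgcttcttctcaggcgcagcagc
Nnat: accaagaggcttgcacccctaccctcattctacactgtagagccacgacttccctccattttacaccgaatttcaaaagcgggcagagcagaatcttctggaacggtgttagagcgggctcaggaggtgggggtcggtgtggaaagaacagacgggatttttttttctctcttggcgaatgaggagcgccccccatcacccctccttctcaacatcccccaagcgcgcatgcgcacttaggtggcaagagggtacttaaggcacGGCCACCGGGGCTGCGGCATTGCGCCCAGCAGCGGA
The Mest window held the whole 187-base region, with 13 CpG dinucleotides in it, and the Nnat window held 36 bases of its region, with 4. In Plagl1 (chr10:13090582-13090881) and Zdbf2 (chr1:63200108-63200407) the capitals mark the hexamer TGCCGC bound by ZFP57, or GCGGCA, which is the same hexamer on the opposite strand.
Plagl1: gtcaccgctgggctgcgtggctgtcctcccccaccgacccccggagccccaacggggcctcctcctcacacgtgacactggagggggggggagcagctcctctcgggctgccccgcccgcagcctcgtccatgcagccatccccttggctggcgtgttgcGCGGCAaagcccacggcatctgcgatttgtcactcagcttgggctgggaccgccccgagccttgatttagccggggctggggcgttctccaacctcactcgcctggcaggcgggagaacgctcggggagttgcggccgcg
Zdbf2: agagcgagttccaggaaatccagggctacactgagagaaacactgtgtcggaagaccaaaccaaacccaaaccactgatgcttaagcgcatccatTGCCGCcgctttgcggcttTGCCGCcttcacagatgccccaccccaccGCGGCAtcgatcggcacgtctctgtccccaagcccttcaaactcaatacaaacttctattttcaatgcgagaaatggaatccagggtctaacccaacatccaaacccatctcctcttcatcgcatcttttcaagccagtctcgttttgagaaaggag
The listed regions next to these windows lay 1136 bases downstream of the Plagl1 start and 974 bases upstream of the Zdbf2 start. Both strands were searched, overlaps were counted, and the Zdbf2 window held 3 matches, the Mest window 2, and those of Nnat and Plagl1 1 each. The hexamer occurred in 15 of 56 promoter windows of members (26.8%) and in 3809 of 32817 windows of all genes (11.6%). The median was 13.5 CpG dinucleotides in member windows and 7 in all windows. Of the 11 member windows with a listed region within 2 kb of the start, 5 held the hexamer (45.5%), with a median of 17 CpG dinucleotides over the 11. Those 5 all belong to the 4 printed genes. The windows among the 11 of Airn, Commd1, Gnas, Peg3, Usp29 and Zrsr1 held none. Some windows overlap, as a pair at Mest does, so the same match can be counted more than once and windows are not independent. A match describes the letters only.

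Of the 47 imprinted genes, 23 (48.9%, 95% Wilson interval 35.3 to 62.8) had a listed region, and 24 had none. Among the 40 protein-coding members the count was 20, against 29.5% of all protein-coding genes. The members are longer than most genes, with a median span of 40.9 kb against 17.2 kb for protein-coding genes. Per 100 kb searched, they held 1.66 regions and protein-coding genes 1.41. Of the 18 clusters, 13 had a region: 4 held lower regions only, 1 held higher regions only and 8 held both.

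In most of the regions at imprinted genes the PDGFRα+ library was less methylated. Of 61 regions 45 were lower and 16 were higher in PDGFRα+, so 26.2% were higher (95% Wilson interval 16.8 to 38.4), against 22.3% of all listed regions. The median difference, PDGFRα+ minus CD137+, was -0.48 over the imprinted-gene regions and -0.49 over all listed regions. A level averages both parental copies and all cells of a library, so a change on 1 copy and a change in some of the cells cannot be told apart. In the lower regions the PDGFRα+ median was 0.288 and the CD137+ median 0.873, and in the higher regions they were 0.815 and 0.292. The difference reached 0.6 or more in 17 of the 61 (27.9%), against 23.4% over the table. Counted by region, direction and size at these genes thus lay close to those of the table. Counted by cluster, the median of the 13 cluster means was -0.18, since regions of opposite direction average out within 8 of the clusters. Without Ppp1r9a, an exclusion chosen after its values were seen, 21.6% of the remaining 51 regions were higher. The split also depended on which regions were kept: of the 35 with an absolute area statistic above the median of the table, 14 (40.0%) were higher, against 21.3% of all listed regions above it.

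**Figure D1:**
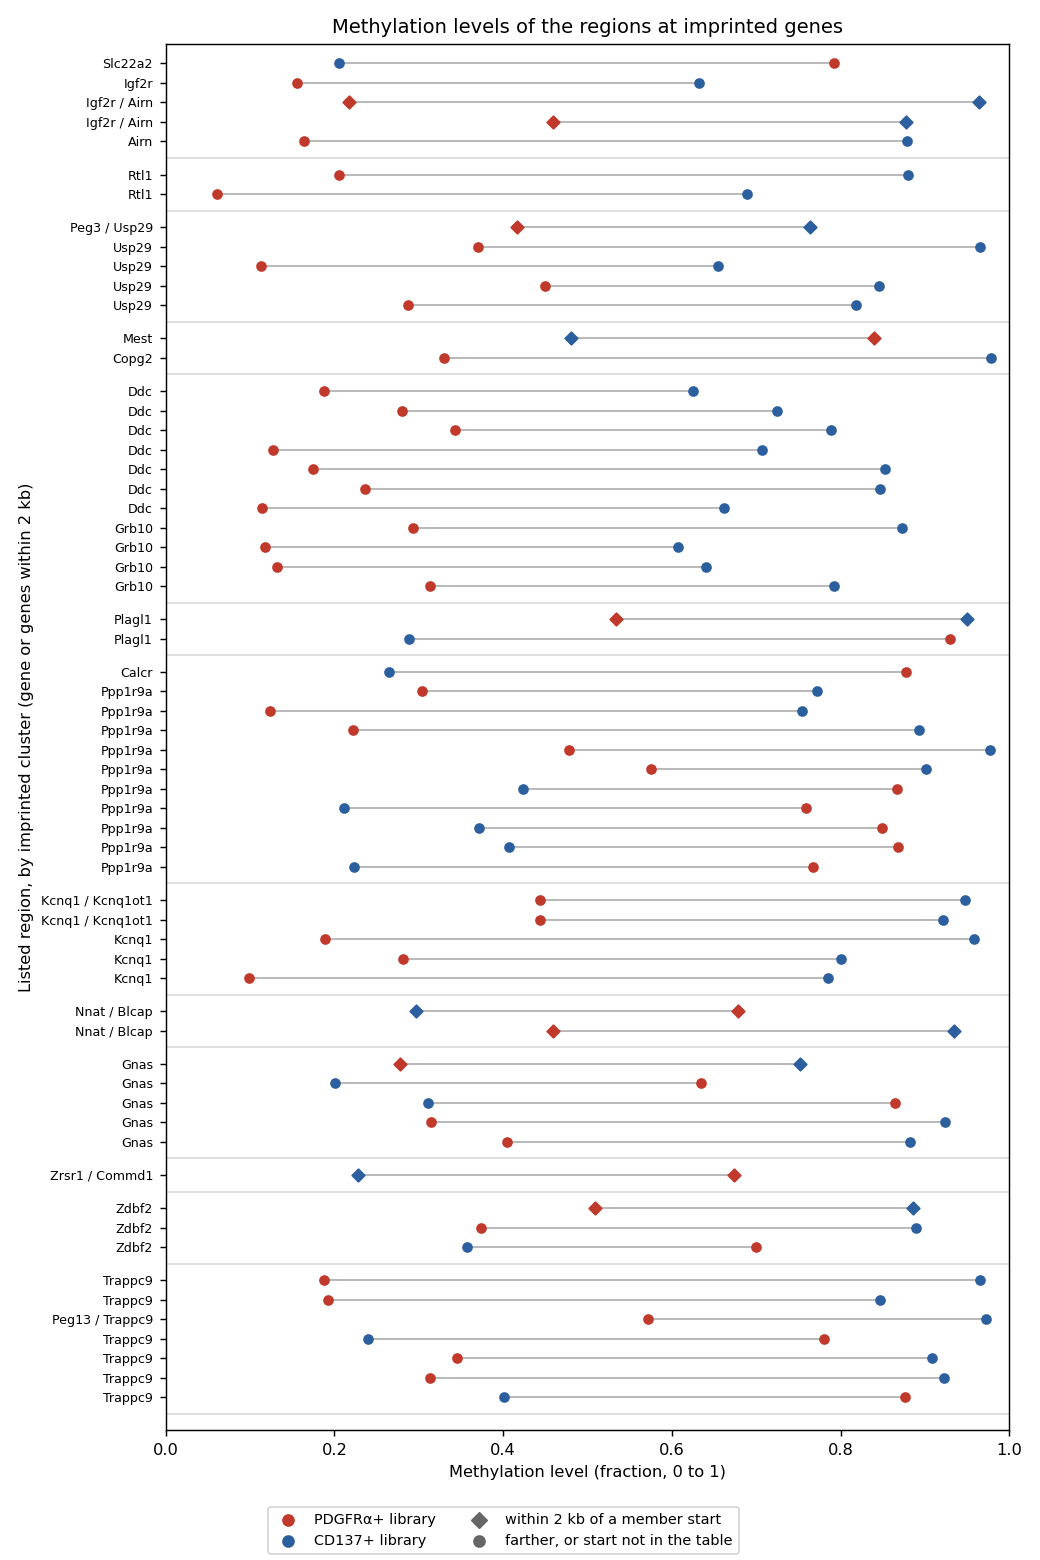
Methylation level (horizontal axis, fraction from 0 to 1) of each of the 61 listed regions at imprinted genes in the PDGFRα+ (red) and CD137+ (blue) library, 1 region per row, grouped by cluster and named by the gene or genes within 2 kb. Diamonds mark the 10 regions within 2 kb of a member's start, and rows with the red point on the right are the 16 regions higher in PDGFRα+.

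Regions near the starts of imprinted genes are described next. A start was available for 38 of the 47 members, and 10 of these (26.3%, 95% Wilson interval 15.0 to 42.0) had a listed region within 2 kb of it, against 7.97% of 27025 genes of any kind. These were Airn, Commd1, Gnas, Mest, Nnat, Peg3, Plagl1, Usp29, Zdbf2 and Zrsr1, and they shared 10 regions, 3 higher and 7 lower in PDGFRα+. Peg3 and Usp29 had the same region, as had Zrsr1 and Commd1, so the 10 genes are not independent. The 38 members had 56 promoter windows and the 27025 genes 32817, so a member had more starts on average. Of all listed regions within 2 kb of a start, 32.6% were higher. Starts of Cdkn1c, H19, Impact, Kcnq1, Peg10, Peg13, Rtl1, Sgce and Trappc9 were not used here.

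The 10 start-proximal regions had a median absolute difference of 0.417, and the other 51 regions at imprinted genes had one of 0.541. Listed regions within 2 kb of any start had a median of 0.521. A level from 0.4 to 0.6 in 1 or both libraries was found in 6 of the 10 (95% Wilson interval 31.3% to 83.2%), against 23.2% of all listed regions near a start. With a range of 0.35 to 0.65 the count was again 6 of 10, but the share of all listed regions near a start was 38.1%, which lies inside that interval. Among all 61 regions at imprinted genes 16 had such a level (26.2%), against 23.4% of the table. The 10 regions were dense in cytosines, with a median of 8.31 per 100 bases, against 4.70 in listed regions near any start. The distance and the level range were chosen after the values were seen, and the authors' list holds only regions called as different, so an imprint with equal levels in both libraries does not appear in it.

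Of 12 members whose own start is a textbook germline imprint, 9 had a start that could be used: Airn, Kcnq1ot1, Mest, Nap1l5, Nnat, Peg3, Plagl1, Snrpn and Zrsr1. Of these 9, all but Kcnq1ot1, Nap1l5 and Snrpn had a listed region within 2 kb of the start, which is 6 of 9 (66.7%), beside 7.97% of all genes. This list was written after the regions were seen, so its count is a description and supports nothing on imprints. It is also not exhaustive. Grb10, with no start closer than 33947 bases to a region, and Gnas, with a region 1787 bases from its first start, were left out.

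**Figure D2:**
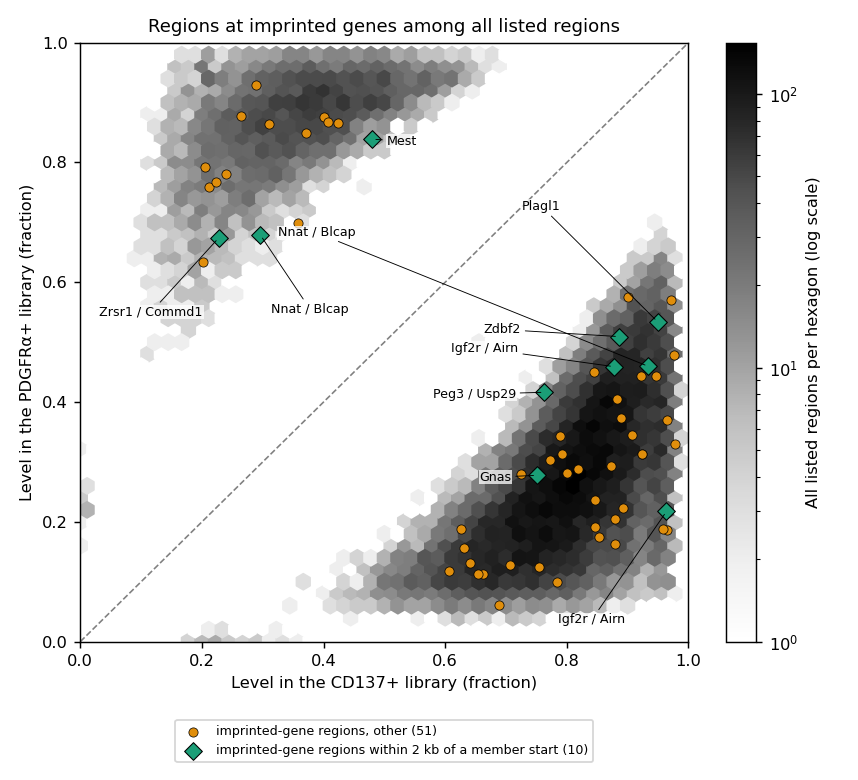
Level of each listed region in the CD137+ library (horizontal) and the PDGFRα+ library (vertical), both as fractions; grey hexagons count all 28141 listed regions on a log scale. The 10 regions within 2 kb of a member's start (green diamonds) include Mest and Peg3 at the inner edge of the cloud, and the other 51 regions at imprinted genes (orange) spread through it.

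Mest encodes a hydrolase-like enzyme of the endoplasmic reticulum that is expressed from the paternal copy, and a region at a promoter of it was more methylated in PDGFRα+. The region printed above (chr6:30737888-30738074, 20 cytosines) contained the annotated start of the printed window and was methylated at 0.839 in PDGFRα+ and at 0.480 in CD137+. The difference over this region was 0.36. Another annotated Mest start lay 4382 bases from it. Copg2, the neighbouring gene for a coatomer subunit of Golgi vesicles, had 1 region 8974 bases inside its start (chr6:30887664-30887820), with levels of 0.330 and 0.978.

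Nnat encodes neuronatin, a small membrane protein of brain and fat, and lies inside the span of Blcap. It held a pair of regions of opposite direction 631 bases apart. The region 14 bases downstream of the start (chr2:157560092-157560249, 14 cytosines) was methylated at 0.679 in PDGFRα+ and at 0.296 in CD137+. The region 803 bases downstream (chr2:157560881-157561115, 9 cytosines) had levels of 0.460 and 0.934. The higher level therefore passed from PDGFRα+ to CD137+ within less than 1 kb.

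Zrsr1, a paternally expressed splicing factor gene, lies inside Commd1, a gene of copper balance and NF-κB control. Their only region (chr11:22972127-22972391, 17 cytosines) began 122 bases downstream of the Zrsr1 start and 475 bases from a Commd1 start. Its level was 0.674 in PDGFRα+ and 0.227 in CD137+. This was the only cluster in which every region was higher in PDGFRα+.

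At Plagl1 and Peg3, zinc-finger genes of growth control that are expressed from the paternal copy, the start-proximal region was lower in PDGFRα+. In Plagl1 the region 1136 bases downstream of the start (chr10:13091968-13092029, 11 cytosines) was methylated at 0.534 in PDGFRα+ and at 0.949 in CD137+. It also overlapped Hymai, a noncoding RNA gene read from the same locus. A further Plagl1 region, 13115 bases downstream (chr10:13103947-13104196), was opposite in direction, with levels of 0.929 and 0.289.

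Peg3 shares a start area with Usp29, a gene for a ubiquitin-specific protease. The region 805 bases downstream of the Peg3 start and 969 bases upstream of the Usp29 start (chr7:6729451-6729614, 21 cytosines) was methylated at 0.416 in PDGFRα+ and at 0.763 in CD137+. The other 4 regions of Usp29 were lower as well, and the widest difference was at chr7:6775640-6775746, with levels of 0.370 and 0.965. Next came chr7:6791580-6792029, with 0.113 and 0.655, and chr7:6903617-6903795, with 0.288 and 0.818. Across the 5 regions of the cluster PDGFRα+ levels ran from 0.113 to 0.450 and CD137+ levels from 0.655 to 0.965. Zim1, the neighbouring zinc-finger gene expressed from the maternal copy, had none.

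Igf2r encodes the receptor that clears insulin-like growth factor 2 and is expressed from the maternal copy, and Airn is the noncoding RNA that silences it on the paternal copy. All 4 regions of this pair were lower in PDGFRα+. Both regions that flank the Airn start lie inside Igf2r as well. The region 802 bases upstream (chr17:12740456-12740509, 4 cytosines) was methylated at 0.217 in PDGFRα+ and at 0.964 in CD137+, and the region 220 bases downstream (chr17:12741531-12741646, 9 cytosines) had levels of 0.459 and 0.878. Another region of Airn, 58098 bases downstream of its start (chr17:12799409-12799585), had levels of 0.164 and 0.879. The remaining region, in Igf2r only (chr17:12722879-12722952, 9 cytosines), had levels of 0.156 and 0.632. The start of Igf2r itself lay 28060 bases from the nearest region. Slc22a2, an organic cation transporter gene of the same cluster, had 1 region of the opposite direction (chr17:12627854-12628250), with 0.792 and 0.205, and Slc22a3 had none.

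Zdbf2, a zinc-finger gene expressed from the paternal copy, held 3 regions. The region 974 bases upstream of the start (chr1:63199318-63199384, 5 cytosines) overlapped the neighbouring imprinted gene Gpr1 and was methylated at 0.509 in PDGFRα+ and at 0.886 in CD137+. A second region, at chr1:63252752-63252836, had 0.374 and 0.890. The third, 11745 bases upstream of another Zdbf2 start (chr1:63261428-63261524, 11 cytosines), was opposite in direction, with 0.699 and 0.357.

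Gnas encodes the stimulatory G protein subunit and also gives rise to other products from starts used on different parental copies. Its 5 regions, with 133 cytosines in all, formed blocks of alternating direction. The region 1787 bases downstream of the first start (chr2:174286107-174286385, 27 cytosines), which also lies in the antisense gene Gnasas1, was methylated at 0.278 in PDGFRα+ and at 0.751 in CD137+. The next, chr2:174298464-174299004, held 56 cytosines, the most of any region at an imprinted gene, and had levels of 0.634 and 0.201.

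The adjoining Gnas region, chr2:174299689-174300643, had levels of 0.865 and 0.311. Toward the end of the gene, chr2:174334519-174334670 had 0.314 and 0.923 and chr2:174338274-174338414 had 0.405 and 0.882. The gene was thus lower in PDGFRα+ at both ends and higher in the pair between them.

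Grb10 encodes an adaptor that inhibits insulin and insulin-like growth factor receptors, and its neighbour Ddc encodes the decarboxylase that makes dopamine and serotonin. All 11 regions of this cluster, 4 in Grb10 and 7 in Ddc, were lower in PDGFRα+, and it held 5.53 regions per 100 kb. PDGFRα+ levels ran from 0.114 to 0.343 and CD137+ levels from 0.607 to 0.873. All lower regions of the table had medians of 0.261 and 0.820, and a gap between the libraries follows from the way regions entered the list. The widest difference in Grb10 was at chr11:11953500-11953930, with levels of 0.294 and 0.873. In Ddc it was at chr11:11849634-11849864, with 0.175 and 0.853, followed by chr11:11873000-11873721, with 0.236 and 0.846. None lay near a start of Grb10 or Ddc: the nearest were 33947 bases downstream of a Grb10 start and 10695 bases downstream of a Ddc start. The Grb10 region chr11:11968803-11969030 lay within 2 kb of a start of another gene.

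Kcnq1, a potassium channel gene, hosts Kcnq1ot1, the noncoding RNA that silences the genes around it on the paternal copy. All 5 regions were lower in PDGFRα+. The widest difference was at chr7:143314000-143314112, with 0.188 in PDGFRα+ and 0.958 in CD137+, and chr7:143395201-143395438 and chr7:143389218-143389356 had 0.0992 and 0.785, and 0.282 and 0.800. The pair inside Kcnq1ot1 had nearly the same levels as each other, 0.444 and 0.948 at chr7:143248028-143248113 and 0.444 and 0.921 at chr7:143265411-143265553. The region nearest to the Kcnq1ot1 start lay 17453 bases from it. Cdkn1c, which encodes a cell-cycle inhibitor, Phlda2, a gene that restrains placental growth, Slc22a18 and Ascl2 had none.

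Ppp1r9a encodes neurabin, an actin-binding protein that targets a phosphatase, and it held 10 of the 11 regions of its cluster. The direction changed along the gene. Its 5 regions nearest the start, from 59104 to 121810 bases downstream, were all lower in PDGFRα+, and its 5 regions from 177810 to 264063 bases downstream were all higher. In the first group the widest difference was at chr6:5005456-5006254 (35 cytosines), with 0.223 in PDGFRα+ and 0.892 in CD137+, and chr6:4994066-4994971 had 0.124 and 0.754. Next came chr6:5014690-5014753, with 0.478 and 0.977. In the second group chr6:5103844-5103966 had 0.759 and 0.211. The last region, chr6:5167374-5167551, lay 1713 bases beyond the gene and had 0.767 and 0.224.

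Calcr, the calcitonin receptor gene at the other end of this cluster, had 1 region (chr6:3749714-3749902), with 0.877 and 0.265. Sgce and Peg10, the pair at the centre of the cluster whose shared start area carries its imprint, had no region, and neither had Asb4. The nearest region lay 50788 bases from Peg10 and had levels of 0.947 and 0.358.

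Trappc9, a vesicle-trafficking gene, hosts the paternally expressed noncoding RNA Peg13. It held 7 regions, 5 lower and 2 higher in PDGFRα+. The widest lower differences were at chr15:72678833-72679052, with 0.187 in PDGFRα+ and 0.965 in CD137+, and at chr15:72740646-72741235, with 0.192 and 0.847. Next came chr15:73004289-73004529, with 0.313 and 0.923. The region 717 bases from the end of the Peg13 span (chr15:72811041-72811194, 5 cytosines) had the intermediate level of 0.571 in PDGFRα+ and 0.972 in CD137+. Of the higher regions, chr15:72865526-72866455 held 35 cytosines, with 0.780 and 0.240, and chr15:73017731-73017920 had 0.877 and 0.401. The lower and higher regions of Trappc9 were interleaved, unlike those of Ppp1r9a.

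Rtl1, a gene derived from a retrotransposon that is needed in placental capillaries, was the only member of the Dlk1-Meg3 cluster with a region. It held 2, both lower in PDGFRα+. The region chr12:109598465-109599156 (20 cytosines) had the lowest PDGFRα+ level of all 61 regions, 0.0608, against 0.689 in CD137+, and chr12:109596276-109596674 had 0.205 and 0.880. Dlk1 and the noncoding RNA genes Meg3, Rian and Mirg had none within 2 kb. The region nearest to Meg3 lay 10307 bases below its span (chr12:109530135-109530689, 21 cytosines) and was opposite in direction, with 0.873 in PDGFRα+ and 0.347 in CD137+.

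**Figure D3:**
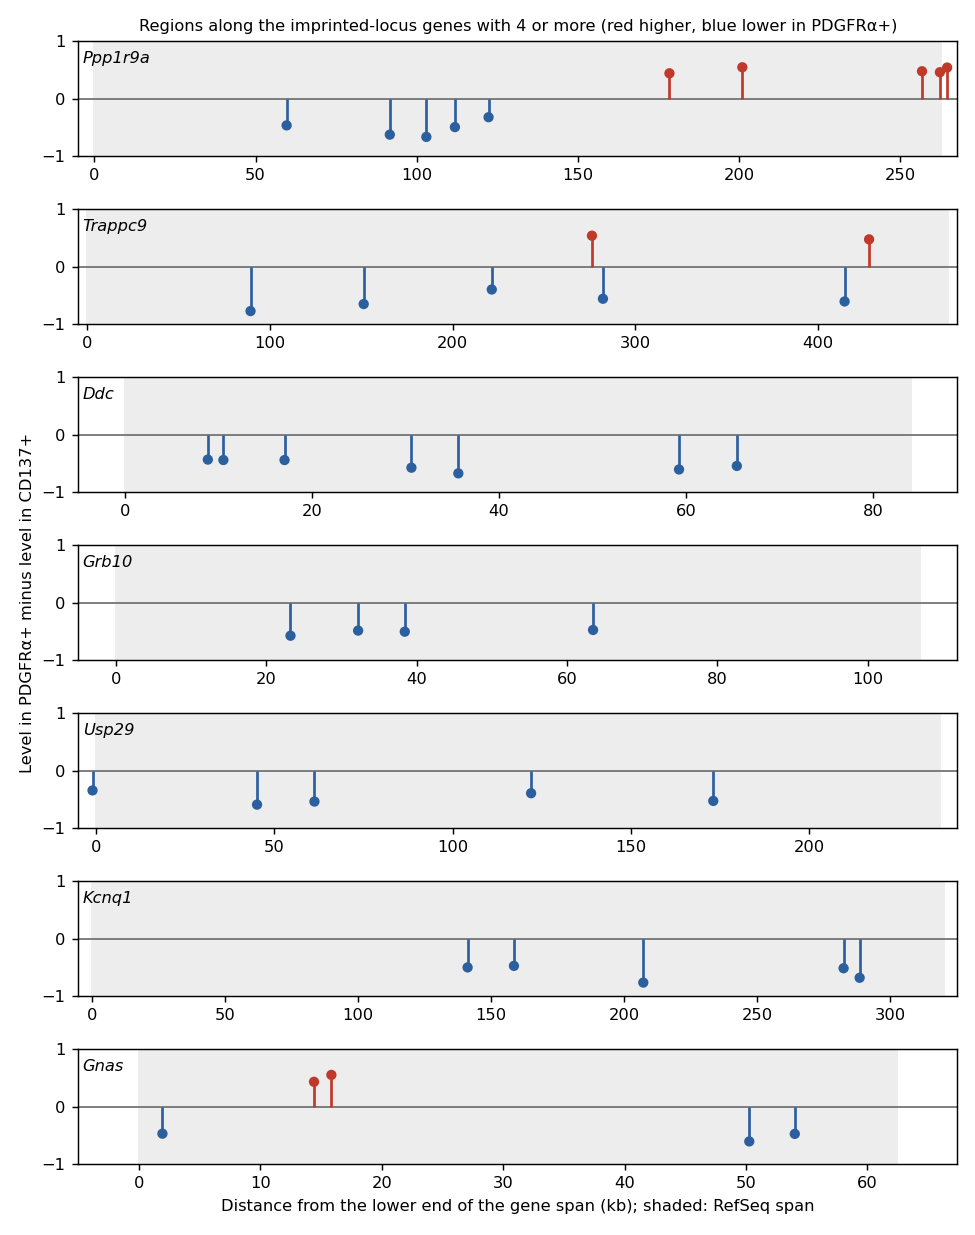
Level in PDGFRα+ minus level in CD137+ (vertical axis, from -1 to 1) of each region along the 7 genes with 4 or more, by distance in kb from the lower end of the gene span (shaded). In Ppp1r9a the 5 regions toward the start are below 0 and the 5 beyond them above 0, while all regions of Ddc, Grb10, Usp29 and Kcnq1 are below 0.

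The clusters without a region were H19-Igf2, Snrpn-Ube3a, Impact, Rasgrf1 and Nap1l5-Herc3. The region nearest to H19, a noncoding RNA gene expressed from the maternal copy, lay 2134 bases above its span, just outside the 2 kb limit (chr7:142580280-142580380, 14 cytosines), and was methylated at 0.736 in PDGFRα+ and at 0.406 in CD137+. Igf2, the gene of insulin-like growth factor 2, was 32424 bases from the nearest region. Herc3 was 9830 bases from one, with 0.301 and 0.815, and Nap1l5, which lies inside Herc3, shared it as its nearest. Impact, a regulator of translation, and Rasgrf1, a Ras exchange factor gene, had their nearest regions 36636 and 37075 bases away.

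The Snrpn-Ube3a cluster was the emptiest. Snrpn, which encodes a splicing protein, and Ndn, Magel2 and Mkrn3 lay in a stretch of 3.64 Mb without any listed region (chr7:59425738-63061862). Only 3 of 27746 stretches between neighbouring regions on the autosomes were longer, and the median was 35.7 kb. Ube3a, a ubiquitin ligase gene just outside it, was 114723 bases from the nearest region. How many reads covered the stretch is unknown.

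**Figure D4:**
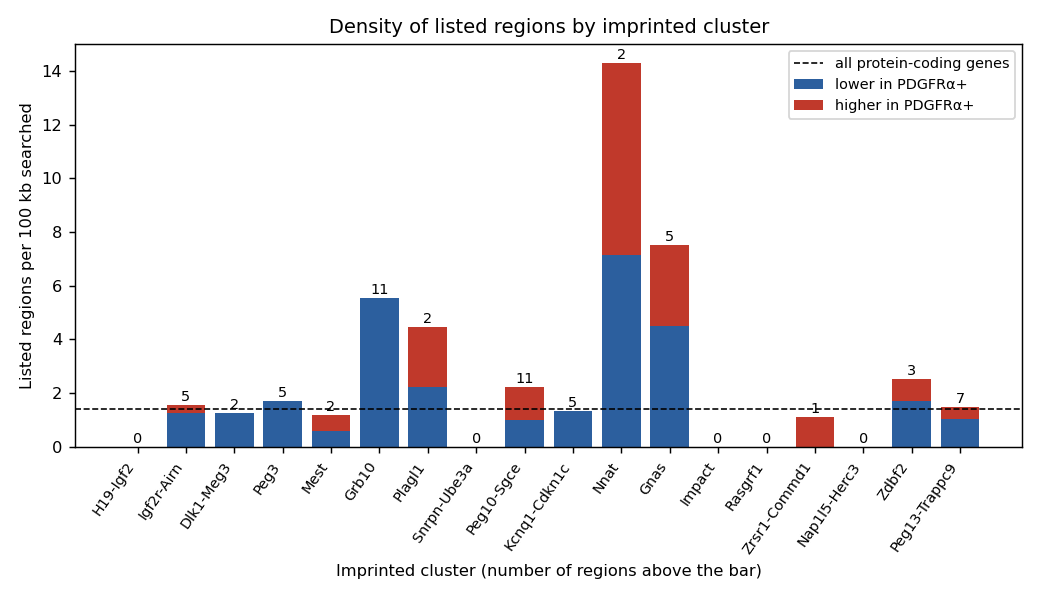
Listed regions per 100 kb searched (vertical axis) in each of the 18 imprinted clusters, divided into regions lower (blue) and higher (red) in PDGFRα+, with the number of regions above each bar. The dashed line is the value of 1.41 for all protein-coding genes, and 5 clusters have none.

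Counts by role and by parental copy are small and are read against the table, in which 29.5% of protein-coding genes had a region and 22.3% of regions were higher. Of 7 noncoding RNA genes, Airn, Kcnq1ot1 and Peg13 had a region, and all 6 of their regions were lower in PDGFRα+, as were 77.7% of all listed regions. Of those 6, 5 lie in the spans of Igf2r, Kcnq1 or Trappc9 and were counted there too. Of 7 genes of growth signalling, Igf2r, Grb10, Gnas and Calcr had a region, with 10 lower and 3 higher. Of 6 nuclear regulators of growth, only Plagl1 and Peg3 did, with 2 lower and 1 higher, and of 7 genes of transport and trafficking 5 did, with 11 lower and 4 higher. Genes usually expressed from the paternal copy held 24 lower and 5 higher regions (12 of 23 genes), and those expressed from the maternal copy 20 lower and 11 higher (9 of 22 genes). Of those 11 higher regions, Ppp1r9a alone held 5. Some regions belong to a gene of each kind, such as that of Zrsr1 and Commd1, and the difference between the kinds was not tested.

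Further imprinted genes and genes that set, keep or erase imprints were also examined. Of 37 further imprinted genes 20 had a region (54.1%), against 29.5% of all protein-coding genes, and 46 of their 57 regions were lower in PDGFRα+, close to the 77.7% of all listed regions. Chrac1, a chromatin remodelling subunit gene beyond Trappc9, had the widest difference, 0.952 in PDGFRα+ and 0.208 in CD137+ (chr15:73092727-73092956). Cd81 and Tssc4, neighbours in the Kcnq1 domain, shared a region with 0.183 and 0.912, and Cobl, next to Grb10, had 0.228 and 0.918. Of 20 genes that set, keep or erase imprints 6 had a region (30.0%, close to the 29.5% of all protein-coding genes), 5 of them lower only. Dnmt3l, the cofactor that helps to set imprints in germ cells, had 0.194 and 0.910, Setdb1, a histone methyltransferase gene, 0.222 and 0.844, and Ehmt2, another, 0.155 and 0.638. The others were genes of demethylation enzymes: Tet1 and Tet3 had 1 lower region each, and Tet2 had 1 region of each direction.

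The marker genes of the sort and of other cell types give the setting of these values. Pdgfra had 1 region, with 0.210 in PDGFRα+ and 0.769 in CD137+, and Tnfrsf9, the gene of CD137, had none. Higher regions made up 19 of 29 at immune marker genes, 15 of 24 at endothelial, 1 of 6 at mural and 1 of 13 at mesothelial ones, against 22.3% of all listed regions. By gene the immune list was even, with 4 genes mostly higher, 4 mostly lower and 2 split, and Ptprc, Ikzf1 and Laptm5 held 8, 5 and 3 of its higher regions. The mostly lower genes were Runx3, with 5 lower regions, and Cd3e, Itgal and Mrc1, with 1 each. In the endothelial list 5 genes were mostly higher, 2 mostly lower and 1 split. The immune genes were named after their values were seen. A table of methylation differences does not give the cell types present, and the part of other cell types in the values at imprinted genes was not tested.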

How the data were processed

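Each group had 1 library, so the 2 libraries were compared by description only. The authors deposited 1 table of differentially methylated regions on mm10, per the submitters' processing notes. Per the file headers it gives a methylation level as a fraction for each library, the difference, an area statistic, which is a score without a fixed range, the length and the count of cytosines. The deposited difference is PDGFRα+ (CD140) minus CD137+. Aligner, caller, thresholds and read depth: not given in the sources used here.

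In all 86 regions lying wholly inside a RefSeq promoter window, the base after the deposited start and the base at the deposited end belonged to a CpG, and the cytosine count never exceeded the CpG cytosines of both strands. Starts were therefore read as 0-based and are printed 1-based.

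Gene spans and promoter windows are RefSeq, GRCm38.p6, the assembly of mm10. All 47 symbols matched a span and 38 a promoter window. Distances run from the edge of a region to a start. Wilson 95% intervals cover counting error only and treat regions as independent. The members and lists were chosen with earlier results of these data known. Both levels are given, by rule, for up to 3 regions per direction and cluster with the largest absolute difference and for those in a promoter window; further regions, the nearest regions of empty genes and the germline list were chosen after values were seen. Alternatives varied the flank, the minimum difference, the minimum of cytosines, the area statistic, the start base, merging, weighting and the members. The overlap search was tested on simulated data. Tables were handled in pandas 2.3.3 and numpy 2.4.6 under Python 3.11.15, intervals came from scipy 1.17.1, and plots from matplotlib 3.10.9.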

Additional observations from a re-analysis of the deposited data

How the results depend on the processing

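Under the alternatives tried, PDGFRα+ stayed the less methylated library in most regions at imprinted genes, with 20.0% to 40.0% of regions higher. The number of regions was 61. It was 33 with differences of at least 0.5, 30 with at least 10 cytosines, 35 with an area statistic above the median of the table, and 23 without the members whose imprint is known only in some tissues, each of which keeps fewer regions or genes by construction. Without those members 12 genes had a region instead of 23. The share of higher regions moved from 26.2% to 40.0% with the larger area statistics, and the cause was not tested. Weighted by cytosines the share was 36.2%, against 22.3% of the table weighted the same way. Weighted by length it was 32.3%, against 20.4%. The median difference of -0.48 became -0.58 with differences of at least 0.5, which removes the smaller ones, and -0.18 as a median over cluster means, in which clusters with regions of both directions average toward 0. The other settings kept each count within 1.5 times and each share and median inside its 95% interval. In alternatives chosen after seeing the data, 8 regions lay within 1 kb and 11 within 5 kb of a member start. No paired analysis was possible because each group has 1 library. Depth is unknown, so no level has an interval.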
